A study of Mus musculus with 15 samples.

Results

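Of the 20089 genes with a complete entry in the expression table, 5 encode subunits of the NADPH oxidase of phagocytes and were taken by their symbols: *Cybb*, *Cyba*, *Ncf1*, *Ncf4* and *Rac2*. All 5 were measured in every sample, and all 5 passed the filter on low values (a mean FPKM of 0.1 or more), as did 11743 genes in all. The phagocyte oxidase moves electrons from NADPH across a membrane to oxygen, which gives superoxide, the parent of hydrogen peroxide and of stronger oxidants that kill microbes. Its catalytic core is the membrane pair gp91phox (*Cybb*, also called NOX2) and p22phox (*Cyba*), which stabilise each other. In resting cells p47phox (*Ncf1*) and p40phox (*Ncf4*) wait in the cytosol, and on stimulation they join the core together with the GTPase Rac, of which Rac2 is a form largely confined to blood cells. Macrophages use the complex in host defence, and reactive oxygen species also take part in RANKL signalling during osteoclast formation.

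The samples were mouse bone marrow-derived macrophages (BMDMs), which the study's methods describe as wild-type cells, in 5 groups of 3 libraries. All groups, the control included, received M-CSF, the growth factor that keeps these cells alive. The control received M-CSF alone, and the others received in addition receptor activator of NF-κB ligand (RANKL), which drives osteoclast formation, or lipopolysaccharide (LPS), a bacterial product that activates macrophages, for 4 h or for 72 h (3 days in the labels). The age of the donor mice of these samples and whether replicates came from separate animals are not given in the sources used here, so p-values measure only the spread between these libraries, which may be technical. The labels give no time for the control, and no control labelled 72 h was analysed here. In comparisons with control the stimulus and the time in culture therefore cannot be told apart, at 72 h or at 4 h.

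In the GENCODE M21 annotation of the mouse genome GRCm38, *Cybb* (gene ID 13058) lies on the minus strand of chromosome X, between 9435252 and 9487771, and its longest coding transcript has 13 exons. *Cyba* (gene ID 13057) lies on the minus strand of chromosome 8, between 122424776 and 122432930, with 6 exons. *Ncf1* (gene ID 17969) is on chromosome 5 from 134220053 to 134229625, minus strand, and has 10 exons. *Ncf4* (gene ID 17972) and *Rac2* (gene ID 19354) share chromosome 15, the former from 78244801 to 78262580 on the plus strand with 10 exons and the latter from 78559167 to 78572783 on the minus strand with 7 exons. On the opposite strand, *Cyba* overlaps the predicted gene Gm20388 and *Ncf1* overlaps *Gtf2ird2*. Whether the counting used strand is not given in the sources used here, so reads of overlapping genes cannot be told apart, although *Gtf2ird2* itself had only 0.256 to 2.09 FPKM in the 15 samples.

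RefSeq promoters (250 bases before the start of the gene and 50 after it, GRCm38.p6, all on the minus strand of the chromosome and printed 5′ to 3′ in the direction of the gene) matched 3 of the 5 genes. They are shown because these genes responded differently to the stimuli. The motifs searched on both strands were GAGGAAGT (a form of a PU.1 site), TGANTCA (AP-1), TATAAA, the interferon-stimulated response element and the NF-kappaB consensus. Capitals mark a match. *Ncf4* and *Rac2* have no entry. The RefSeq start of *Cybb*, 9469324, is that of its longest coding transcript in GENCODE and lies 18447 bases inside the outermost start of the gene given above, while those of *Cyba* and *Ncf1* lie 10 and 0 bases from it.
Cybb (chrX:9469275-9469574): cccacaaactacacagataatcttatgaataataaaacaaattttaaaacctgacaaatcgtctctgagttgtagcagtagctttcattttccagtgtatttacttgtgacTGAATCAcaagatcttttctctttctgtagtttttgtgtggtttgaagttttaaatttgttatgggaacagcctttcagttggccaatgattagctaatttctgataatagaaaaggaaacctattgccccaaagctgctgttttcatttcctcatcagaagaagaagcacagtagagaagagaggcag
Cyba (chr8:122432891-122433190): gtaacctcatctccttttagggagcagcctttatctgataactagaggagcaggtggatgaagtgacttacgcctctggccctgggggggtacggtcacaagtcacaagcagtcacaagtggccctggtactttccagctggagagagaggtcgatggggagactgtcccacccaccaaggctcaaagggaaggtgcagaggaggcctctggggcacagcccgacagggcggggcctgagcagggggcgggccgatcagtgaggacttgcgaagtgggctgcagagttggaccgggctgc
Ncf1 (chr5:134229576-134229875): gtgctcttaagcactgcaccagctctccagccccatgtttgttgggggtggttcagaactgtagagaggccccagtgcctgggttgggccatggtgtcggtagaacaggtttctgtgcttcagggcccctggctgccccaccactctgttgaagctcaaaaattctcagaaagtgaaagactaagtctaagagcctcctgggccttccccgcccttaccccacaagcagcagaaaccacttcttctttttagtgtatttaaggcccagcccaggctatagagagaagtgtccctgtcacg

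The *Cybb* window is rich in A and T, with a GC content of 35.3%, against 60.7% for *Cyba* and 54% for *Ncf1*, and it holds 1 CpG where that of *Cyba* holds 9 and that of *Ncf1* holds 3. Among these 3 promoters there was a single match, to TGANTCA in *Cybb* from 139 to 133 bases before that RefSeq start (-139 to -133), which reads as the motif on both strands. That motif occurs in 7.81% of all 32851 promoters of this length. GAGGAAGT occurs in 3.2%, TATAAA in 13.6%, the interferon-stimulated response element in 0.317% and the NF-kappaB consensus in 4.51% of them. None of these was found in the 3 windows. For PU.1 only the full GAGGAAGT was searched, so shorter or variant forms of its site were not looked for. A match describes letters in the window and is not evidence of a bound factor.

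Expression was deposited as FPKM, fragments scaled to transcript length and to sequencing depth, so levels of different genes can be set side by side. The libraries held 18306184 to 20330207 fragments on the listed genes, and each of the 5 genes rested on 2110 to 46174 fragments per library, for which counting error alone is 2.18% at the low end and 0.465% at the high end. Genes were tested as log2(FPKM + 0.1) with limma over all 11743 genes, and a call needed both a ratio outside 0.66 to 1.5 and p under 0.05 before adjustment. The labels were checked against markers. All 8 macrophage markers were detected in all groups. RANKL 72 h exceeded control in 9 of 10 osteoclast markers (20.2% of all genes), and LPS 4 h exceeded it in 8 of 8 LPS response genes (8.75% of all genes). Other cells were represented too. The summed level of 13 genes of neutrophils and their precursors was 7970 to 24465 FPKM in control, 7564 to 21894 FPKM in RANKL 4 h, 6719 to 21404 FPKM in LPS 4 h, 1884 to 7556 FPKM in RANKL 72 h and 341 to 2089 FPKM in LPS 72 h, and none of the 13 was at 0 in all libraries of a group. Those of 8 stromal genes were 135 to 302 FPKM in control and the groups at 4 h, 375 to 1729 FPKM in RANKL 72 h and 75.9 to 437 FPKM in LPS 72 h, while 5 B cell genes summed to at most 20.9 FPKM and 4 T cell genes to at most 6.31 FPKM. LPS 72 h replicate 3 stood apart from the other LPS 72 h libraries, with the highest neutrophil, stromal and macrophage sums of that group. Its macrophage sum, 17491 FPKM, rests largely on *Lyz2*, at 13800 FPKM. The same library had the lowest sum of LPS response genes in its group, 2018 FPKM against 4396 and 4109 FPKM. The control libraries differed in their LPS response genes, which summed to 908, 406 and 167 FPKM.

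**Figure D1:**
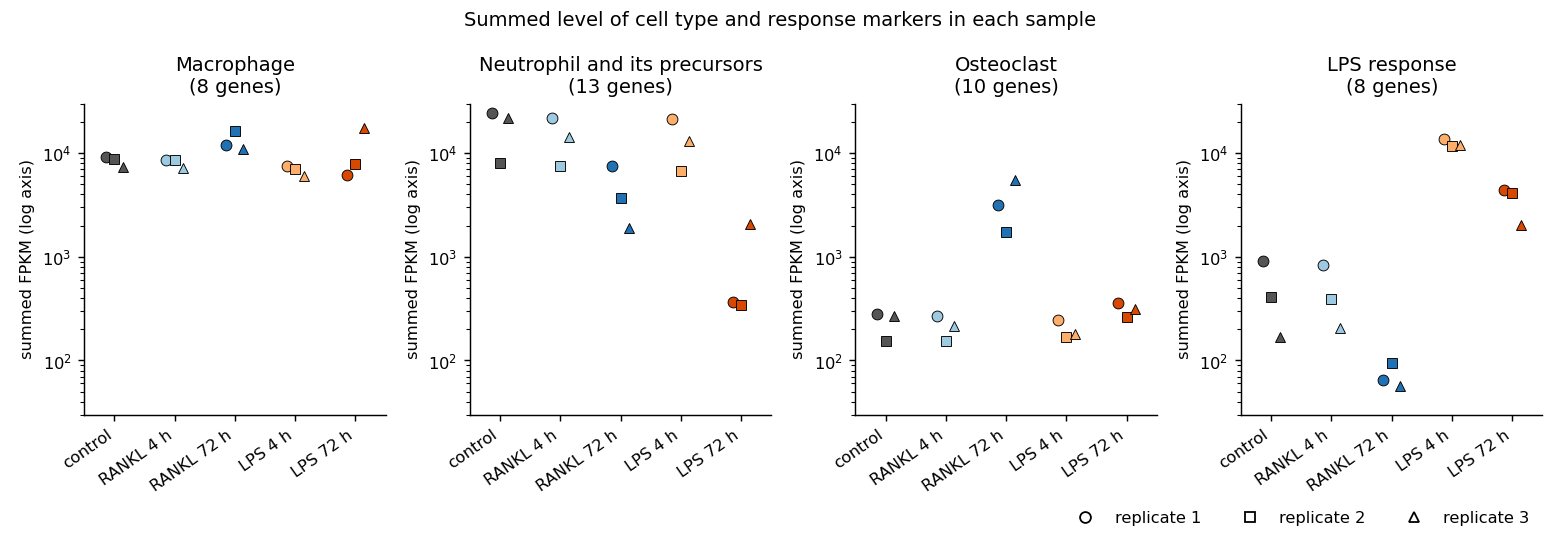
Summed FPKM (log axis) of the macrophage, neutrophil, osteoclast and LPS response markers in each of the 15 samples, 1 point per library. The neutrophil sum lies between 341 and 2089 FPKM in LPS 72 h and between 7970 and 24465 FPKM in control, and the osteoclast sum is highest in RANKL 72 h.

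At rest the oxidase genes were among the more abundant transcripts of these cells. In control, *Cyba* ranked 53 of 11743 genes by mean FPKM, *Cybb* 413, *Ncf1* 422, *Rac2* 478 and *Ncf4* 782. *Cyba* alone made up 61.3% ± 4.61 of the summed FPKM of the 5 genes in control (SD, n = 3), and *Ncf4*, the scarcest, 5.90% ± 0.908. The shares differed between groups. *Cybb* held 11.7% ± 1.69 in control, 25.6% ± 6.71 in LPS 4 h and 17.3% ± 3.09 in LPS 72 h, but 10.4% ± 2.15 in RANKL 4 h and 12.6% ± 1.07 in RANKL 72 h (SD, n = 3 each). *Ncf4* held 6.57% ± 0.493 in RANKL 4 h and 6.30% ± 0.570 in LPS 4 h, near control, but 11.2% ± 1.37 in RANKL 72 h and 10.1% ± 1.04 in LPS 72 h (SD, n = 3 each). Summed over the 5 genes, the level was 1372 ± 167 FPKM in control, 1446 ± 190 in RANKL 4 h, 1006 ± 51.2 in RANKL 72 h, 1554 ± 114 in LPS 4 h and 1511 ± 122 in LPS 72 h (SD, n = 3 each).

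**Figure D2:**
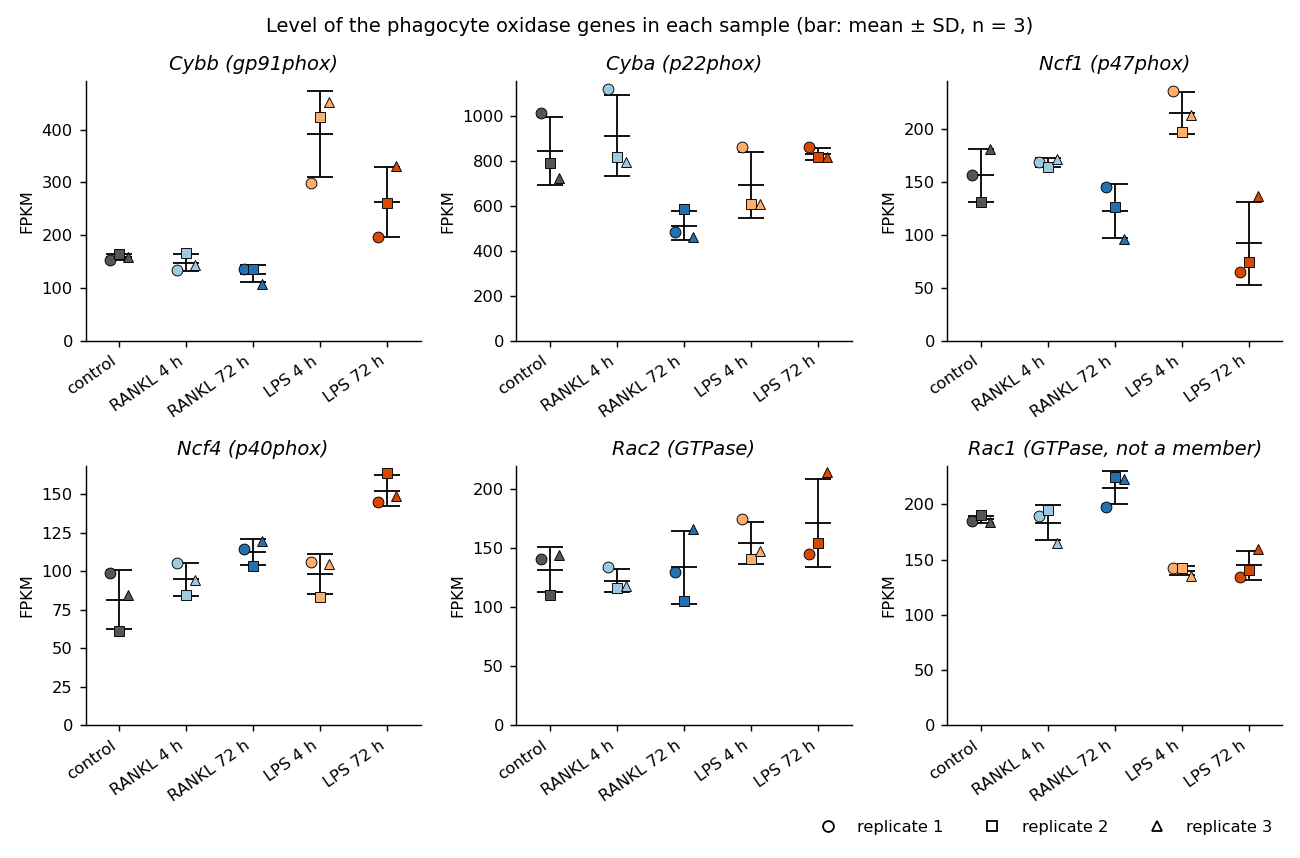
FPKM of the 5 oxidase genes and of *Rac1* in each library, by group, with the mean and SD (n = 3). All LPS samples lie above all control samples for *Cybb*, all RANKL 72 h samples lie below all control samples for *Cyba*, and LPS 72 h is highest for *Ncf4*.

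The 5 genes did not respond as a block. *Cybb* was higher in both LPS groups than in control, and in LPS 72 h *Ncf4* was higher and *Ncf1* lower. *Cyba* was lower in RANKL 72 h, and no change of *Rac2* passed the threshold in any of the 8 comparisons. In RANKL 4 h against control 0 of 5 genes were called, with log2 fold changes from -0.11 for *Cybb* to 0.24 for *Ncf4*. At an unadjusted p under 0.05 there were 0 of 5, by limma on FPKM and by limma voom on fragments alike, neither of which pairs samples. In same-numbered pairs *Cyba* and *Ncf4* were above control in 3 of 3, *Ncf1* in 2 and *Cybb* and *Rac2* in 1. The lowest limma adjusted p of the 5 genes over 18 alternatives, replicate blocks included, was 0.203, for *Ncf4*. Of all tested genes 1.21% were higher and 1.35% lower in that comparison. In RANKL 72 h 0 of 5 genes were higher, against 20.2% of all genes, and 1 was lower, against 9.04%. LPS 4 h had 1 of 5 higher and 0 lower, where 8.75% of all genes were higher and 41.0% lower. LPS 72 h had 2 of 5 higher, against 14.9%, and 1 lower, against 16.1%. These comparisons share the control libraries, so their results are not independent.

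The median tested gene had a log2 fold change of -0.52 in LPS 4 h, against 0.00 in RANKL 4 h, 0.16 in RANKL 72 h and 0.08 in LPS 72 h. When each sample was centred on its median gene, 4 of the 5 genes were higher in LPS 4 h than in control: *Cybb* by 1.85, *Ncf1* by 1.04, *Ncf4* by 0.85 and *Rac2* by 0.80 on the log2 scale (limma with Benjamini-Hochberg adjusted p = 1.24e-05, 0.00641, 0.00225 and 0.00954). Under that scaling 17.4% of all genes were higher and 14.3% lower in LPS 4 h, 12.7% higher and 14.2% lower in RANKL 72 h, and 11.8% higher and 18.1% lower in LPS 72 h. The direction of *Cyba* turned with it, from -0.29 to 0.28 (limma adjusted p = 0.196 and 0.361). Relative to the median gene, therefore, *Ncf1*, *Ncf4* and *Rac2* were also higher in LPS 4 h, while on the FPKM scale they did not pass the threshold. On that scale all 3 were above control in 3 of 3 same-numbered pairs. A fit of control and the 4 h groups alone, with the replicate number as a block, was chosen after seeing the data. In that fit their limma adjusted p were 0.00152, 0.0128 and 0.0260, and all 3 were still under the fold threshold.

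**Figure D3:**
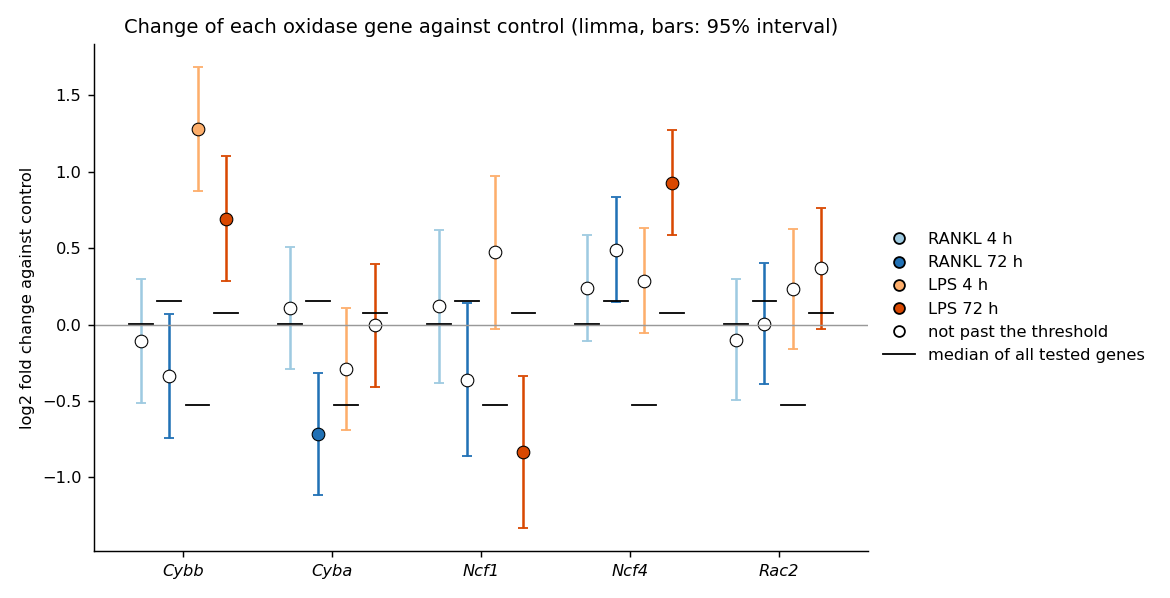
Log2 fold change against control of each oxidase gene in the 4 stimulated groups, with 95% intervals from limma. Filled points pass the thresholds, open points do not, and the short black lines give the median of all tested genes in that comparison, which is -0.52 in LPS 4 h.

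*Cybb*, the catalytic subunit, had 154, 164 and 159 FPKM in the control samples. It had 299, 425 and 453 FPKM in LPS 4 h and 197, 261 and 331 FPKM in LPS 72 h. In RANKL 4 h it had 135, 167 and 143 FPKM and in RANKL 72 h 136, 136 and 108 FPKM. Every LPS sample was above every control sample, and the RANKL 72 h samples were all below the control samples. *Cybb* rose 2.43-fold in LPS 4 h (log2 fold change 1.28, standard error 0.19, limma adjusted p = 7.15e-05) and 1.62-fold in LPS 72 h (log2 fold change 0.69, limma adjusted p = 0.012). The second call rested on 1 library, since without LPS 72 h replicate 3 the log2 fold change was 0.51, under the fold threshold. Under RANKL at 72 h the log2 fold change was -0.34 (limma adjusted p = 0.192), and the 3 control and 3 RANKL 72 h libraries did not overlap (p = 0.1 in an exact two-sided permutation test, where 3 against 3 can give no smaller value). Set directly against LPS, *Cybb* was lower in RANKL at both times, by a log2 fold change of -1.39 at 4 h and -1.03 at 72 h (limma adjusted p = 3.49e-05 and 0.000608). From 4 h to 72 h of LPS it went from 392 ± 82.0 to 263 ± 66.8 FPKM (SD, n = 3 each), a ratio of 0.667 that fell just short of the fold threshold (log2 fold change -0.59, limma adjusted p = 0.0141). Leaving out LPS 4 h replicate 1 or LPS 72 h replicate 3 brought it to -0.77, past the threshold, and centring on the median gene brought it to -1.23. In order of level, LPS 4 h was highest, and of the neighbours in that order only LPS 72 h and control had ranges that did not overlap.

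*Cyba*, the smaller membrane subunit on which gp91phox depends for its stability, had 1014, 789.9 and 726 FPKM in control. It had 1122, 819.5 and 797 FPKM in RANKL 4 h but 486, 584 and 463 FPKM in RANKL 72 h. In LPS 4 h it had 862, 611 and 606 FPKM and in LPS 72 h 862, 816 and 817 FPKM. The RANKL 72 h samples were the 3 lowest of all 15, and the other groups overlapped one another. *Cyba* fell 1.64-fold in RANKL 72 h (log2 fold change -0.72, standard error 0.19, limma adjusted p = 0.0108). It was also lower in RANKL 72 h than in RANKL 4 h (log2 fold change -0.83, limma adjusted p = 0.00514) and than in LPS 72 h (-0.71, adjusted p = 0.00686). Control replicate 1 was the highest control library, and without it the fall against control was -0.58 (adjusted p = 0.0573, in a range of 0.00355 to 0.0573 over all alternatives), short of the fold threshold. With FPKM rescaled to equal sums it was -0.60, also just short of it. In LPS 4 h it was -0.29, under the fold threshold, and *Cyba* was lower than in control in 3 of 3 same-numbered pairs. In the fit of control and the 4 h groups with that block, chosen after seeing the data, the difference had a limma adjusted p of 0.00154 in place of 0.196. In LPS 72 h the log2 fold change against control was -0.01, with a 95% interval from -0.40 to 0.39. In order of level RANKL 4 h, control, LPS 72 h and LPS 4 h overlapped from neighbour to neighbour, and RANKL 72 h stood clear below them.

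*Ncf1*, the organiser p47phox, had 156, 131 and 181 FPKM in control. RANKL 4 h gave 169, 164 and 172 FPKM. It had 236, 197 and 213 FPKM in LPS 4 h and 65.1, 73.8 and 137 FPKM in LPS 72 h. RANKL 72 h had 145, 126 and 95.5 FPKM. The LPS 4 h samples were the highest of all 15, and the lowest pair of samples were LPS 72 h replicates 1 and 2, while LPS 72 h replicate 3 lay inside the control range. Against control, *Ncf1* was 1.39-fold in LPS 4 h, below the fold threshold (log2 fold change 0.47, standard error 0.23, limma adjusted p = 0.0936), and without control replicate 3 it reached 0.59, just past the threshold (adjusted p = 0.0738, in a range of 0.00152 to 0.271 over all alternatives). It fell 1.78-fold in LPS 72 h (log2 fold change -0.83, standard error 0.23, limma adjusted p = 0.0134), and without LPS 72 h replicate 3 the log2 fold change was -1.16. The drop from LPS 4 h to LPS 72 h was the largest time difference among the 5 genes, 2.47-fold (log2 fold change -1.30, limma adjusted p = 0.000222), and the samples of these groups did not overlap. RANKL 72 h and LPS 72 h differed in *Ncf1* by a log2 fold change of 0.47 (limma adjusted p = 0.112), which passed the threshold without RANKL 72 h replicate 3 (0.64) and without LPS 72 h replicate 3 (0.80). RANKL 72 h against RANKL 4 h gave -0.48, and -0.61 without RANKL 72 h replicate 1. In order of level LPS 4 h stood clear of RANKL 4 h, and below it the ranges of all neighbours overlapped.

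The fall of *Ncf1* in LPS 72 h came with a fall of transcripts of neutrophils, which are themselves rich in the oxidase. Of the 13 neutrophil genes, 11 were lower and 1 was higher in LPS 72 h than in control, where 16.1% of all genes were lower and 14.9% higher. Their median log2 fold change was -6.15 against 0.08 for all genes. *Elane*, which encodes neutrophil elastase, had 336 ± 88.5 FPKM in control and 3.82 ± 5.47 FPKM in LPS 72 h (SD, n = 3 each), and *Ngp* and *Camp*, granule genes of maturing neutrophils, had log2 fold changes of -7.69 and -7.58. LPS 72 h replicate 3, the library with the most *Ncf1* in its group, also had the highest neutrophil sum, 2089 FPKM against 369.7 and 341. That sum rests largely on *S100a8* and *S100a9*, at 917 and 701 FPKM in this library. It also had the most *Cybb* and *Rac2* of its group, 331 and 215 FPKM, but not the most *Cyba* or *Ncf4*. In LPS 4 h and RANKL 72 h, too, 1 library, replicate 1, had both the most *Ncf1* and the highest neutrophil sum. In control and RANKL 4 h these fell apart, with the most *Ncf1* in replicate 3 and the highest sum in replicate 1. In RANKL 72 h, 7 of the 13 were lower and none higher, where 9.04% of all genes were lower and 20.2% higher. *Mmp8*, a collagenase of neutrophils, was the exception that rose in LPS 72 h (log2 fold change 1.30, limma adjusted p = 0.0437). The part of these cells in the *Ncf1* values, or in those of the other subunits, was not tested, and in bulk samples fewer cells of a type and less RNA per cell cannot be told apart.

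*Ncf4* encodes p40phox, which binds phosphatidylinositol 3-phosphate and holds the complex on phagosomes. It had 98.9, 60.9 and 84.4 FPKM in control. At 4 h it had 105, 84.3 and 94.5 FPKM in RANKL and 106, 83.4 and 105 FPKM in LPS. At 72 h it had 114, 104 and 119.5 FPKM in RANKL and 145, 163 and 149 FPKM in LPS. Both 72 h groups lay entirely above control, and the LPS 72 h samples were above all others. *Ncf4* rose 1.91-fold in LPS 72 h (log2 fold change 0.93, standard error 0.16, limma adjusted p = 0.000662) and stayed past the thresholds under each of 17 alternatives run for it. It also exceeded LPS 4 h (log2 fold change 0.64, limma adjusted p = 0.00291), a call lost without LPS 4 h replicate 2 (0.53) and with samples centred on the median gene (-0.01, adjusted p = 0.977, in a range of 0.000879 to 0.977). RANKL 72 h was 1.41-fold against control (log2 fold change 0.49, limma adjusted p = 0.0332), under the fold threshold, and passed it without control replicate 1 (0.65) or with FPKM rescaled to equal sums (0.61).

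*Rac2*, the haematopoietic Rac GTPase, had 141, 110.0 and 145 FPKM in control. Under RANKL it had 134, 116 and 118 FPKM at 4 h and 129.9, 105 and 167 FPKM at 72 h. It had 175, 141 and 148 FPKM in LPS 4 h and 145, 155 and 215 FPKM in LPS 72 h. Only LPS 72 h lay above all control samples, by a margin of less than 1 FPKM at its lowest sample. Its fold changes against control ran from 0.934 in RANKL 4 h to 1.29 in LPS 72 h, where the log2 fold change was 0.37 with a 95% interval from -0.03 to 0.76 (limma adjusted p = 0.135). In RANKL 72 h the log2 fold change was 0.01 with an interval from -0.39 to 0.40. All neighbours in the order of its group levels overlapped.

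Direct comparisons between the stimuli and between the times called few of the 5 genes. In RANKL 4 h against LPS 4 h 0 were higher, where 42.5% of all genes were, and 1, *Cybb*, was lower, where 9.31% were. With samples centred on the median gene 4 were lower, where 17.6% of all genes were. In RANKL 72 h against LPS 72 h 0 were higher (25.1% of all genes) and *Cybb* and *Cyba* were lower (13.8%). RANKL 72 h against RANKL 4 h gave 0 higher (20.1%) and *Cyba* lower (8.24%), with *Ncf1* lower too when centred (13.6%). LPS 72 h against LPS 4 h gave *Ncf4* higher (45.0%) and *Ncf1* lower (14.3%). There, centring brought *Cybb* past the threshold as lower (log2 fold change -1.23), and *Ncf4* was no longer called (-0.0072).

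Ratios of 2 genes within a library do not depend on its scaling. The ratio of *Cyba* to *Cybb*, the partners of the membrane core, was 6.59, 4.81 and 4.56 in control and 8.32, 4.91 and 5.59 in RANKL 4 h. It was 2.88, 1.44 and 1.34 in LPS 4 h, 4.37, 3.13 and 2.47 in LPS 72 h and 3.58, 4.30 and 4.28 in RANKL 72 h. All libraries of these last 3 groups were below all control libraries, and the ratio was 2.97-fold lower in LPS 4 h, 1.62-fold lower in LPS 72 h and 1.30-fold lower in RANKL 72 h. In both LPS groups the change came with more *Cybb*, and in LPS 4 h *Cyba* was lower as well on the FPKM scale (log2 fold change -0.29, not called). In RANKL 72 h the change came with less *Cyba*, although *Cybb* was lower there too (-0.34, not called). Within the cytosolic pair, *Ncf1* to *Ncf4* was 1.58, 2.15 and 2.15 in control, 1.27, 1.22 and 0.799 in RANKL 72 h and 0.450, 0.452 and 0.918 in LPS 72 h. *Ncf1* thus outnumbered *Ncf4* per length in all control libraries and in none of LPS 72 h. At 4 h this ratio overlapped control under both stimuli.

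*Rac1*, the Rac GTPase made by most cells, gives the third ratio. *Rac2* to *Rac1* was 0.762, 0.578 and 0.787 in control, 1.23, 0.991 and 1.10 in LPS 4 h and 1.08, 1.10 and 1.34 in LPS 72 h, without overlap. In LPS 4 h and LPS 72 h *Rac1* itself had log2 fold changes of -0.41 and -0.37 (limma adjusted p = 0.00341 and 0.0133), below the fold threshold, and 140.0 ± 4.22 and 145 ± 13.2 FPKM against 186 ± 3.35 FPKM in control (SD, n = 3 each). Under RANKL the ratio overlapped control at both times. Of the 12 comparisons of ratios with control, 7 had no overlap between groups, each with a two-sided exact permutation p of 0.1, the lowest this design allows (adjusted p = 0.171 over the 12), so none could pass 0.05.

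**Figure D4:**
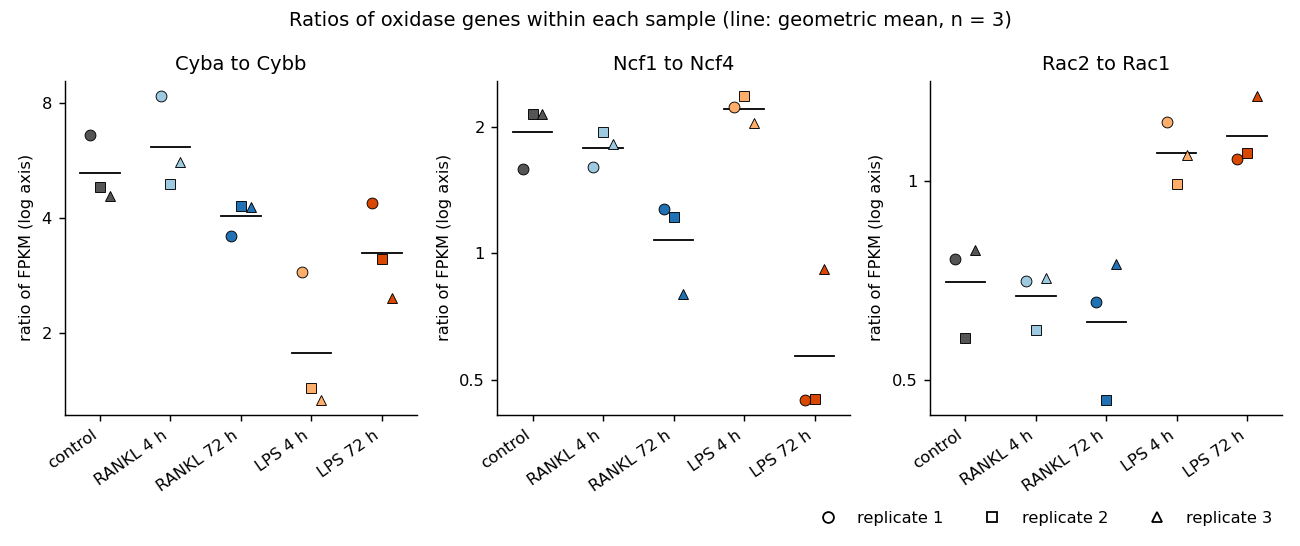
Ratios of FPKM (log axis) of *Cyba* to *Cybb*, *Ncf1* to *Ncf4* and *Rac2* to *Rac1* in each library, with the geometric mean of each group as a line (n = 3). The *Cyba* to *Cybb* ratio is lowest in LPS 4 h, at 1.34 to 2.88, and the *Ncf1* to *Ncf4* ratio is below 1 in all LPS 72 h libraries.

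Apart from *Rac1*, the other oxidase family and partner genes examined were scarce. Of 12 such genes 11 were in the table, 4 passed the filter on low values, and *Cybc1* was not analysed here. RANKL 72 h exceeded control in 3 of the 4 and was lower in none, where 20.2% of all genes were higher and 9.04% lower. *Rac3*, a further Rac GTPase, had 4.84, 7.33 and 3.08 FPKM against 1.25, 3.61 and 1.81 FPKM in control (log2 fold change 1.20, limma adjusted p = 0.0831), and was not called with samples centred on the median gene. The others were *Nox1*, a catalytic subunit related to gp91phox, and its organiser *Noxo1*, both named after their values were seen because they were under 1 FPKM. *Nox1* had 0.440, 0.352 and 0.682 FPKM in RANKL 72 h and 0.117, 0.417 and 0.746 FPKM in LPS 4 h, against 0, 0.0807 and 0.0344 FPKM in control. LPS 4 h called 1 of the 4, *Nox1*, as higher, where 8.75% of all genes were higher. RANKL 4 h and LPS 72 h called none (lowest unadjusted p of 0.493 and 0.00305 by limma, the latter for *Rac1*, under the fold threshold).

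Genes that activate or restrain the oxidase moved in both directions. Of 22 tested, 0 were higher and 1 lower in RANKL 4 h, 4 higher and 1 lower in RANKL 72 h, 5 higher and 4 lower in LPS 4 h and 2 higher and 7 lower in LPS 72 h, with medians of -0.14, -0.02, -0.28 and -0.21 beside 0.00, 0.16, -0.52 and 0.08 for all genes. Of all genes, 1.21% were higher and 1.35% lower in RANKL 4 h, 20.2% and 9.04% in RANKL 72 h, 8.75% and 41.0% in LPS 4 h and 14.9% and 16.1% in LPS 72 h. Centring on the median gene changed the split to 3 and 4 in RANKL 72 h, to 6 and 1 in LPS 4 h and to 2 and 8 in LPS 72 h. All genes so centred were 12.7% higher and 14.2% lower in RANKL 72 h, 17.4% and 14.3% in LPS 4 h and 11.8% and 18.1% in LPS 72 h. *Nrros*, whose product restrains reactive oxygen species by promoting loss of gp91phox, had 67.9, 84.9 and 82.6 FPKM in control and 21.5, 15.01 and 21.7 FPKM in LPS 4 h, a fall of 2.02 on the log2 scale (limma adjusted p = 1.64e-06) and of 1.46 when centred. In the same libraries *Pik3r5*, a regulatory subunit of phosphoinositide 3-kinase gamma, rose from 35.9 ± 8.92 to 116 ± 22.3 FPKM (SD, n = 3 each, log2 fold change 1.70, limma adjusted p = 1.07e-05). *Prex1*, an exchange factor that loads Rac with GTP, had 67.9, 60.7 and 67.4 FPKM in RANKL 72 h against 28.9, 31.4 and 33.8 FPKM in control (log2 fold change 1.06, limma adjusted p = 0.000422). In LPS 72 h *Prdx6*, a peroxiredoxin with phospholipase activity, rose (1.32, adjusted p = 0.000584). *S100a8* and *S100a9*, calcium-binding proteins that deliver arachidonic acid to the oxidase, had log2 fold changes of -4.47 and -6.44 in LPS 72 h, and both also stand on the neutrophil list.

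The enzymes that supply NADPH included 9 tested genes. RANKL 4 h called 0 (0 at an unadjusted p under 0.05 by limma), 1 was lower in RANKL 72 h, 4 were lower in LPS 4 h, and 3 were higher and 2 lower in LPS 72 h. Of all genes, 9.04% were lower in RANKL 72 h and 41.0% in LPS 4 h, and 14.9% were higher and 16.1% lower in LPS 72 h. The median in LPS 4 h was -0.60, close to the -0.52 of all genes, and with samples centred on the median gene 1 was higher and 2 were lower there, beside 0 and 2 in RANKL 72 h and 2 and 2 in LPS 72 h. Of all genes so centred, 17.4% were higher and 14.3% lower in LPS 4 h, 12.7% and 14.2% in RANKL 72 h and 11.8% and 18.1% in LPS 72 h. *Idh1*, the cytosolic isocitrate dehydrogenase, had 77.7, 94.6 and 97.7 FPKM in control and 23.4, 34.7 and 26.1 FPKM in LPS 4 h (log2 fold change -1.69, limma adjusted p = 9.51e-07). *H6pd*, which makes NADPH in the endoplasmic reticulum, fell by 1.41 in LPS 4 h and was higher by 0.74 in LPS 72 h on the log2 scale (limma adjusted p = 0.000161 and 0.0233). *Nnt*, the mitochondrial transhydrogenase, fell by 0.95 in LPS 4 h, a call lost when centred (-0.38). Malic enzyme *Me1* rose in LPS 72 h (1.13, adjusted p = 0.00147), as did the NAD kinase *Nadk* (0.63, adjusted p = 0.00388), whose call was lost when centred (0.54).

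Enzymes that remove superoxide and peroxide comprised 12 tested genes. RANKL 4 h called 0 (0 at an unadjusted p under 0.05 by limma), 3 were higher and 2 lower in RANKL 72 h, 2 higher and 0 lower in LPS 4 h, and 2 higher and 2 lower in LPS 72 h. Centring on the median gene changed the split to 1 and 2 in RANKL 72 h, where *Sod1* and *Gpx3* were no longer called, to 3 and 0 in LPS 4 h, and to 1 and 2 in LPS 72 h, where *Prdx5* was no longer called. Of all genes, 1.21% were higher and 1.35% lower in RANKL 4 h, and 20.2% and 9.04% in RANKL 72 h. In LPS 4 h these shares were 8.75% and 41.0%, and in LPS 72 h 14.9% and 16.1%. Centred, they were 12.7% and 14.2% in RANKL 72 h, 17.4% and 14.3% in LPS 4 h and 11.8% and 18.1% in LPS 72 h. The mitochondrial superoxide dismutase *Sod2* had 35.2, 26.9 and 15.96 FPKM in control and 310, 248 and 292 FPKM in LPS 4 h (log2 fold change 3.51, limma adjusted p = 1.11e-07), beside the rise of *Cybb* in the same samples. *Prdx5*, a mitochondrial and peroxisomal peroxiredoxin, moved in opposite directions, higher in LPS 4 h (0.88, adjusted p = 0.0416) and lower in RANKL 72 h (-0.94, adjusted p = 0.0532). *Prdx1*, an abundant cytosolic peroxiredoxin, had 553, 919 and 691 FPKM in RANKL 72 h against 2086, 2151 and 2125 FPKM in control, a fall of 1.59 on the log2 scale (limma adjusted p = 0.000218). *Prdx4*, which acts in the secretory pathway, rose in those samples (0.85, adjusted p = 0.0253), and the secreted glutathione peroxidase *Gpx3* fell by 1.20 in LPS 72 h (adjusted p = 0.00126).

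**Figure D5:**
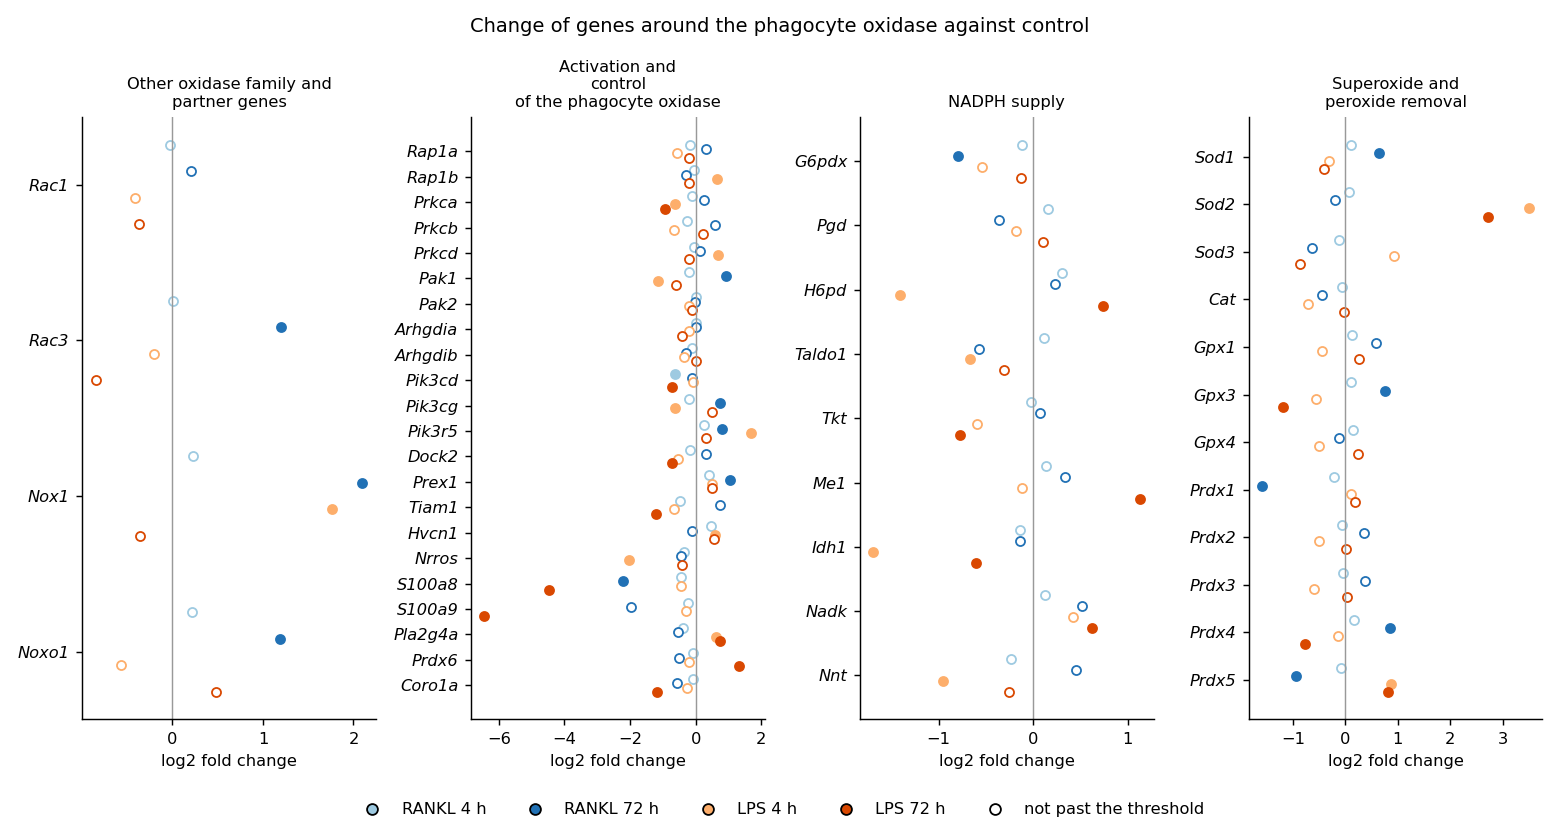
Log2 fold change against control of the tested genes of 4 lists (other oxidase family genes, activation and control, NADPH supply, removal of superoxide and peroxide), coloured by stimulated group, with open points for genes not past the thresholds. *Sod2* in LPS 4 h is at 3.51, *Nrros* in LPS 4 h at -2.02 and *S100a9* in LPS 72 h at -6.44.

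The patterns of the 5 genes over the 15 samples were compared with one another and with those of other genes. Likeness was measured as the root mean square difference of log2(FPKM + 0.1) after each gene was centred on its own mean, over 9485 genes averaging 1 FPKM or more. The nearest pair among the 5 was *Ncf4* and *Rac2*, at 0.28, where *Rac2* ranked 87 among the genes nearest to *Ncf4* and *Ncf4* ranked 124 among those nearest to *Rac2*, and the farthest was *Ncf1* and *Ncf4*, at 0.77. By this measure genes that vary little lie near one another. The spread about the own mean was 0.26 for *Rac2* and 0.35 for *Ncf4*, so *Rac2* lay no nearer to *Ncf4* than to a flat pattern. None of the 5 had another of them among its 3 nearest genes. The pattern of *Cybb* was nearest to those of *Adhfe1* (0.21), *Stat3* (0.23) and *Ampd3* (0.24). *Stat3* had 33.0 ± 2.26 FPKM in control, 83.1 ± 8.33 in LPS 4 h and 49.0 ± 2.11 in LPS 72 h (SD, n = 3 each). For *Cyba* the nearest were *Fis1* (0.12), *Il3ra* (0.15) and *Pomp* (0.15), and for *Ncf1* they were *Akna* (0.24), *Acot9* (0.24) and *Inpp1* (0.25). *Ncf4* was nearest to *Cnih4* (0.19), *Prnp* (0.20) and *Ccnyl1* (0.20), and *Rac2* to *Sqrdl* (0.17), *Rnf14* (0.17) and *Lrp10* (0.18). The points share libraries and stimuli, and a small difference says nothing of shared function.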

How the data were processed

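RNA-seq of 15 samples of BMDMs was analysed, 3 in each of 5 groups, with group and replicate number taken from the sample labels. The authors deposited FPKM per gene and sample, and their methods name StringTie and Ballgown for them. The submitters' processing notes list GRCm38.p4, mm10 and StringTie. The aligner is not given in the sources used here. The last gene entry is incomplete and genes after it in alphabetical order were not analysed here.

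FPKM were whole multiples of a step per gene and sample, and dividing by it gave fragments for the 14485 genes detected in 3 or more samples (100% of their non-zero values within 0.01 of a whole number). Replicates of a group differed by 6.75 to 48.8 times the sampling noise, so each counted as 1. Log2(FPKM + 0.1) of the 11743 genes averaging 0.1 FPKM or more was fitted in R 4.3.3 by the lmFit and trended eBayes functions of limma 3.58.1, all 5 groups together, with Benjamini-Hochberg adjustment over all tested genes. Fold changes on this scale understate those of low genes. The study used edgeR, which needs counts, so it was not the main test here, and limma voom on recovered fragments was an alternative. Ratios within samples were compared by two-sided exact permutation tests. The thresholds for a call follow the methods of the study. Intervals cover 95%.

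The members and lists were chosen with earlier results of these data known, and 1 listed gene is not reported here. All 5 members are named, as are up to 3 genes past the threshold per direction and list with the largest changes against control (mean of at least 1 FPKM) and the 3 genes most like each member. Promoters came from RefSeq (GRCm38.p6) and positions from GENCODE M21, which need not be the annotation behind the FPKM. Whether same-numbered samples pair was checked by the correlation of their deviations from the group means over 9486 genes. It was 0.71 to 0.84 between control and RANKL 4 h, 0.44 to 0.62 between control and LPS 4 h and 0.55 to 0.69 between RANKL 4 h and LPS 4 h, 0.14 to 0.32 for RANKL 72 h with control and 0.16 to 0.25 with RANKL 4 h, but -0.23 to 0.18 in the comparisons with LPS 72 h. The numbers were thus taken to pair the samples in 5 of the 8 comparisons, from the data and not from the labels. Alternatives varied the pseudocount, filter, scaling, groups fitted, replicate block, trend and p adjustment, and left out each replicate in turn. Python 3.11.15, numpy 2.4.6, pandas 2.3.3, scipy 1.17.1 and matplotlib 3.10.9 were used.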

Additional observations from a re-analysis of the deposited data

Results flagged for a closer look

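The responses of 3 gene and time pairs differed between the stimuli by a direct test, which sets RANKL against LPS at 1 time and, as both have 1 control in common, also tests whether the responses differ. *Cybb* was lower in RANKL 4 h than in LPS 4 h by a log2 fold change of -1.39 and lower in RANKL 72 h than in LPS 72 h by -1.03 (limma with Benjamini-Hochberg adjusted p = 3.49e-05 and 0.000608). *Cyba* was lower in RANKL 72 h than in LPS 72 h by -0.71 (adjusted p = 0.00686). Each difference held in 3 of 3 samples against 3 of 3 and kept its direction and call under all alternatives run for it (17, and 18 at 4 h).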

How the results depend on the processing

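Each oxidase gene in each of the 8 comparisons was refitted under 17 alternatives, and under 1 more in the 3 comparisons among control and the 4 h groups. Of 695 values for single genes, 655 kept their direction and their side of the threshold, and 20 changed sign. Among the rest, which kept their sign, 16 newly passed the threshold and 4 no longer did. A change of sign was counted only as such, also where a call was lost with it, as for *Ncf4* in LPS 72 h against LPS 4 h when centred. Of 223 values for counts and ratios, 217 stayed within 1.5 times the count or 1 SD of the ratio. Centring each sample on its median gene gave 4 genes called in LPS 4 h against control (1 as reported), 4 in RANKL 4 h against LPS 4 h (1) and 2 in RANKL 72 h against RANKL 4 h (1). Centring also put *Cybb* in place of *Ncf4* among the called genes in LPS 72 h against LPS 4 h. Under it these log2 fold changes changed sign: *Rac2* -0.21 in RANKL 72 h against control, *Cyba* 0.28 in LPS 4 h against control and -0.17 in RANKL 4 h against LPS 4 h, *Rac2* -0.11 in RANKL 72 h against RANKL 4 h, and *Cyba* -0.37, *Ncf4* -0.0072 and *Rac2* -0.52 in LPS 72 h against LPS 4 h. By construction this scaling removes the shift of the median gene, which is largest in LPS 4 h. Rescaling FPKM to equal sums turned *Cyba* in LPS 72 h against control to 0.026. Leaving out 1 replicate turned 7 results, whose ranges were -0.047 to 0.25 for *Cyba* and -0.0020 to 0.23 for *Ncf1* in RANKL 4 h against control, -0.16 to 0.17 for *Rac2* in RANKL 72 h against control, -0.11 to 0.13 for *Cyba* in LPS 72 h against control, -0.16 to 0.034 for *Ncf4* in RANKL 4 h against LPS 4 h, and, for *Rac2*, -0.067 to 0.27 in RANKL 72 h against RANKL 4 h and -0.039 to 0.24 in LPS 72 h against LPS 4 h. Leave-one-out counts of called genes ran from 1 to 2 in LPS 4 h against control (2 without control replicate 3), from 1 to 2 in RANKL 72 h against RANKL 4 h (2 without RANKL 72 h replicate 1), from 1 to 3 in LPS 72 h against LPS 4 h (1 without LPS 4 h replicate 2, and 3 without LPS 4 h replicate 1 or LPS 72 h replicate 3, against 2 as reported), from 2 to 3 in LPS 72 h against control (2 without LPS 72 h replicate 3) and from 2 to 3 in RANKL 72 h against LPS 72 h (3 without RANKL 72 h replicate 3 or LPS 72 h replicate 3). In RANKL 72 h against control the count was 1 throughout, but without control replicate 1 the gene was *Ncf4* in place of *Cyba*. The cause of changes on leaving out a library was not tested. With the replicate number as a block over all groups, 3 genes were called in LPS 72 h against control and 1 in LPS 4 h against control, and the block changed no call of the 5 genes in any comparison. A block in a fit of control and the 4 h groups alone, chosen after seeing the data, changed none either, but raised the number of all genes called in RANKL 4 h against control from 301 to 518.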
